A study of Rattus norvegicus with 6 samples.

Results

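The 10 genes described here encode 8 Toll-like receptors (Tlr2 to Tlr9), the adaptor Myd88 and the co-receptor Cd14. They were taken by gene name from the deposited mRNA table of rat sciatic nerve, where all 10 of the 10 names matched 1 row each among 30957 genes. Every member passed the filter on low counts and was tested. RNA came from sciatic nerve tissue of 1-month-old Sprague-Dawley rats, and 3 groups were formed, each of 2 rats with 1 library apiece, named a and b: control, 4 days after a forceps crush of the left nerve (D4) and 7 days after it (D7). The paper calls the injured samples lesional tissue and does not state which length of nerve was taken. The control rats are labelled as normal controls, whereas the methods describe an operation without the clamp. Libraries with the same letter come from different rats, and the labels name no transgene or drug. The p-values of the main fit rest on the spread between rats of the same group, estimated over all 6 libraries together and with information shared across genes.

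Toll-like receptors recognize microbial products and molecules released from damaged tissue. TLR2 (with its partner TLR6), TLR4 and TLR5 sit on the cell surface and bind lipoproteins, lipopolysaccharide and flagellin, and CD14 hands lipopolysaccharide and lipoproteins to them. TLR3, TLR7, TLR8 and TLR9 sit in endosomes and bind nucleic acids. All of them except TLR3 signal through the adaptor MYD88 to NF-κB and related factors, whereas TLR3 signals through another adaptor, TRIF. In the nerve, resident and recruited macrophages carry most of these receptors and Schwann cells carry some of them, and the receptors are known to take part in the clearance of debris after axons are cut or crushed.

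The deposited fragment counts summed to between 18727255 and 25350886 per library, and the counts were scaled with TMM factors between 0.863 and 1.08. CPM, the counts relative to the scaled library size, were used between libraries, and the deposited FPKM, which divides by gene length, between genes. A gene was called upregulated or downregulated when edgeR's quasi-likelihood test gave a Benjamini-Hochberg adjusted p-value under 0.05 over 15195 genes and the fold change was at least 2. As a check of the tissue label, the Schwann cell genes Sox10, a lineage factor, and S100b, a calcium-binding protein, were at 357 and 257 CPM and at 2140 and 1799 CPM in control a and b. The library D7 a had the lowest sums of adipocyte and red blood cell markers. Adipocyte markers summed to 4.41 CPM in it, against 351 in D7 b, 252 and 123 in D4 a and b and 888 to 1098 in the control libraries. The red blood cell markers found summed to 17.6 CPM in D7 a against 120 in D7 b. Other libraries differed as well, since skeletal muscle markers summed to 42.4 CPM in D4 a and 5.65 in D4 b. Because of the low sums in D7 a, values without it are given beside the D7 results that change. Groups of 2 libraries do not show which library is the outlying one.

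Promoter sequences from RefSeq (build GRCr8, 250 bases before to 50 after each listed start) were found for 10 of 10 members and were searched on both strands for 4 motifs. These were the NF-κB motif, the AP-1 motif TGANTCA, the interferon-stimulated response element (ISRE) written as GAAA, any 2 bases and GAAA, and the PU.1 motif GAGGAAGT. Matches were found in 3 members and none of the 4 motifs in the other 7. The PU.1 motif was in 0 of them and in 2.44% of 27457 promoters of the same length. The NF-κB motif was present only in Tlr2, at 2 separate places, and in 7.60% of all promoters. The place farther from the start held 2 overlapping matches. The stretches around the 2 places are shown because Tlr2 had the largest change of the 10 members, with the matched letters in capitals. They lie on the minus strand of GRCr8 at chr2:171504744-171504773 and chr2:171504580-171504609.
Tlr2 far: caggcccttgGGGGAATTCCCatacggagc
Tlr2 near: ccctggcctgGGGACGTCCCcttcccgcac

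The Myd88 promoter held an AP-1 match that began 208 bases before the start and an ISRE match that began 16 bases before it. The ISRE motif was in 3.77% of all promoters and the AP-1 motif in 7.33%. The 250 bases before the start are shown because Myd88 is the adaptor shared by most of the receptors, with both matches in capitals, on the minus strand of GRCr8 at chr8:127956231-127956480.
Myd88: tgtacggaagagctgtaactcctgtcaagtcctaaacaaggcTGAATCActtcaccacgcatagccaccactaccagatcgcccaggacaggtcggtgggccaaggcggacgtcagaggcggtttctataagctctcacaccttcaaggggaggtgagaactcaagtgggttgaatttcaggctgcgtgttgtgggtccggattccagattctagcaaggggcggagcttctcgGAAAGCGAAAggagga

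The only match in Tlr9 was to the AP-1 motif, 65 bases before the start, and it is shown for comparison with Myd88. It lies on the plus strand of GRCr8 at chr8:115743330-115743359.
Tlr9: gcaaatgacgtgTGACTCAttgtaccacct

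A match to these letters describes the sequence and does not show that a factor bound there. All gene positions in the following text are those of the deposited table on the Rnor_6.0 build.

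In the control vs D4 group, 6 of the 10 members were upregulated: Tlr2, Tlr6, Tlr7, Tlr8, Tlr9 and Cd14. Among all 15195 genes tested, 11.2% were upregulated and 10.7% were downregulated. Another 2 members, Tlr5 and Myd88, had adjusted p-values under 0.05 with fold changes under 2, so that 8 of 10 passed without the fold threshold, against 21.6% of all genes in the upward direction. In the control vs D7 group, 2 of 10 were upregulated, Tlr2 and Tlr8, against 9.83% of all genes (9.02% were downregulated), and 5 of 10 had adjusted p-values under 0.05 with a positive change, against 19.5%. The weakest of these 5 was Tlr5, with an adjusted p of 0.0440 from edgeR. The median log2 fold change of the members was 1.14 at D4 and 0.61 at D7, while that of all tested genes was −0.04 and 0.01. Both D4 libraries lay above both control libraries for 9 of the 10 members, all but Tlr3, and this was so for 36.9% of all tested genes. On D7 it held for 8 members, all but Tlr3 and Tlr4, and for 37.2% of all tested genes. The D4 and D7 comparisons share the control libraries. In RNA from nerve tissue, more cells of a type and more RNA per cell cannot be told apart.

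The direction of the call did not depend on the scaling for any called member, but the number of calls did. Without TMM factors the median change over all tested genes, in log2, moved to 0.25 at D4 and 0.31 at D7. The members called were then 8 at D4 and 5 at D7, and the share of upregulated genes among all called genes was 69.3% at D4 and 70.4% at D7, against 51.2% and 52.1% with the factors. Only Tlr3, which was not called under either scaling, changed its sign.

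**Figure D1:**
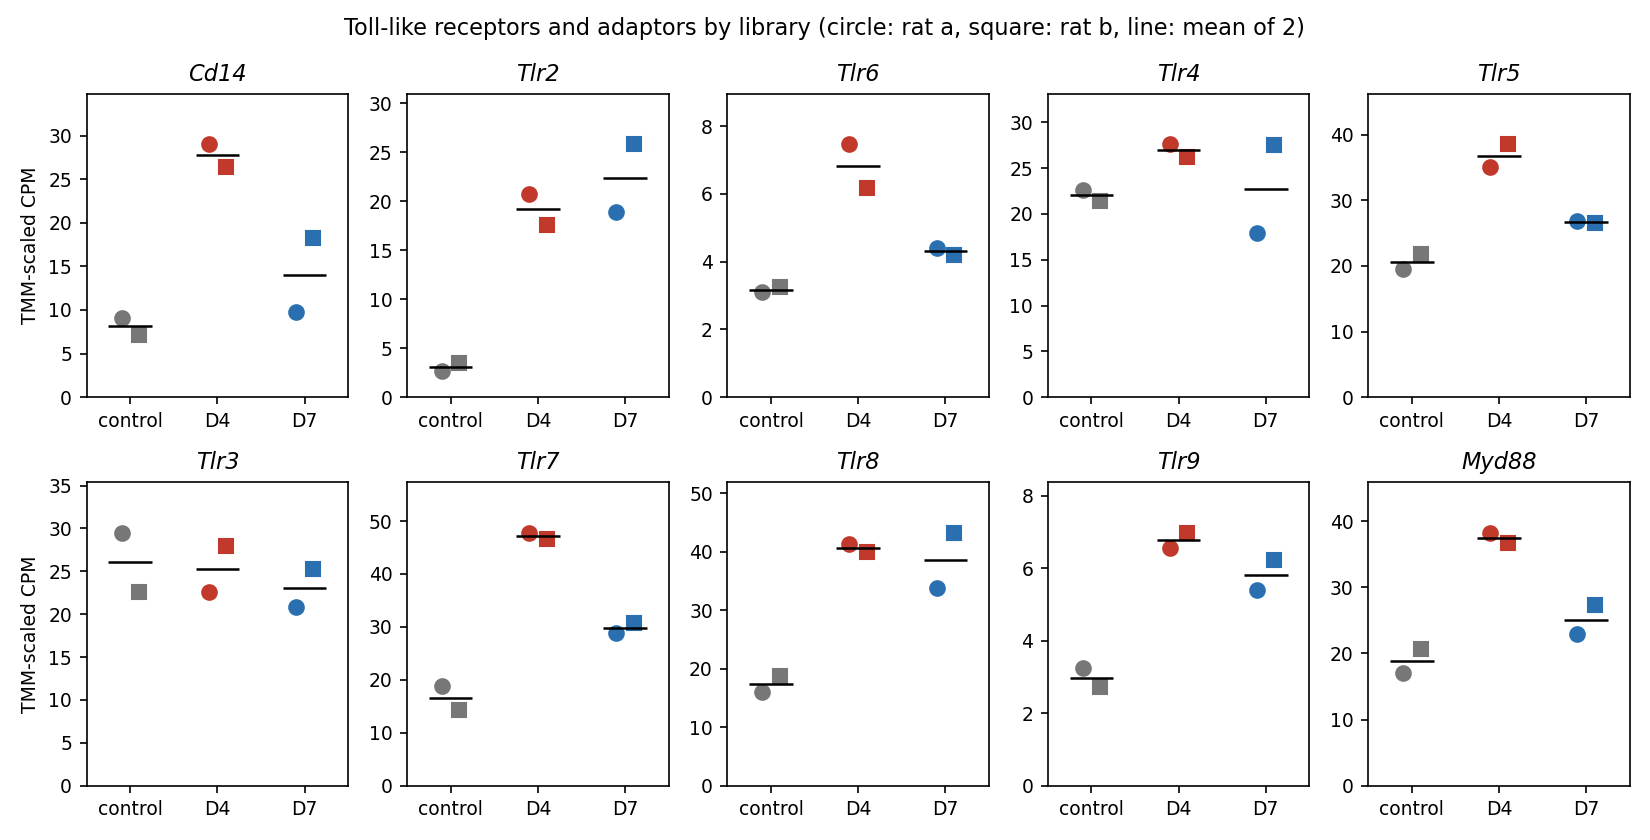
TMM-scaled CPM (vertical axis, from 0) of the 10 members in the control, D4 and D7 groups, with rat a as a circle, rat b as a square and the mean of the 2 rats as a line. Tlr2 is near 3 CPM in both control libraries and between 17.6 and 25.8 CPM in the 4 injured ones, most other members are highest on D4, and Tlr3 shows no separation of the groups.

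Among the surface receptors, Tlr2 (ENSRNOG00000009822, chromosome 2 from 182840727 to 182846061), the receptor for lipoproteins, had the largest fold change of the 10 members at both days. Its level was 2.63 and 3.44 CPM in control a and b, 20.7 and 17.6 CPM 4 days after the crush, and 18.9 and 25.8 CPM after 7 days. All 4 injured libraries were thus far above both control libraries, and the D4 and D7 libraries overlapped. The log2 fold change was 2.66 at D4 (standard error 0.23, 6.33-fold, adjusted p = 0.000476 from edgeR) and 2.89 at D7 (standard error 0.24, 7.39-fold, adjusted p = 0.000635). The counts behind these values were 51 and 57 fragments in the control libraries and 402 to 522 in the injured ones.

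Tlr6 (ENSRNOG00000002161, chromosome 14 from 45033309 to 45046446), the partner of TLR2 for diacylated lipoproteins, was at 3.09 and 3.26 CPM in control a and b, at 7.47 and 6.17 CPM in D4 a and b and at 4.41 and 4.21 CPM in D7 a and b. The groups did not overlap, and D7 lay between control and D4. The rise at D4 was 2.15-fold (log2 1.10 ± 0.21 SE, edgeR adjusted p = 0.00830). Without D4 a the log2 fold change was 0.96 with an adjusted p of 0.0664 from edgeR. At D7 the log2 fold change was 0.44 (95% interval −0.09 to 0.97, adjusted p = 0.157 from edgeR). Tlr6 is a close paralogue and neighbour of Tlr10 on chromosome 14, and fragments that fit several of these related genes may have been divided between them.

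Cd14 (ENSRNOG00000017819, chromosome 18 from 29560365 to 29562153), the co-receptor, was at 9.12 and 7.17 CPM in control a and b, at 29.0 and 26.5 CPM in D4 a and b and at 9.72 and 18.2 CPM in D7 a and b. Both D4 libraries were above all others, and D7 a was close to control a. Cd14 rose 3.40-fold at D4 (log2 1.76 ± 0.31 SE, edgeR adjusted p = 0.00560). At D7 the log2 fold change was 0.77 (95% interval 0.03 to 1.52, adjusted p = 0.0945 from edgeR). The D7 value depended on the library with few adipocyte and blood markers: without D7 a it was 1.19 with an adjusted p of 0.0134, which passed the threshold. The part of the adipocyte and blood markers in this result was not tested.

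Tlr4 (ENSRNOG00000010522, chromosome 5 from 82587420 to 82601052), the lipopolysaccharide receptor that CD14 serves, was not called at either day. It was at 22.6 and 21.5 CPM in control a and b, at 27.6 and 26.3 CPM in D4 a and b and at 17.9 and 27.5 CPM in D7 a and b. The D4 libraries were above the control libraries by a small margin, and the D7 libraries lay on either side of them. The log2 fold change was 0.29 at D4 (95% interval −0.21 to 0.79) and 0.04 at D7 (95% interval −0.46 to 0.54), so that a 2-fold change in either direction lay outside both intervals. As for Cd14, D7 a was the lower library, at 0.652 times the level of D7 b. Without D7 b the D7 change was −0.30, and the sign was therefore not fixed by these libraries.

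Tlr5 (ENSRNOG00000022067, chromosome 13 from 101381510 to 101385764), the flagellin receptor, had closely spaced replicates, at 19.6 and 21.8 CPM in control a and b, at 35.1 and 38.6 CPM in D4 a and b and at 26.9 and 26.6 CPM in D7 a and b. The groups were fully separated, in the order control, D7, D4. The D4 change of 1.78-fold had an adjusted p of 0.00213 from edgeR and the D7 change of 1.29-fold an adjusted p of 0.0440, both under the fold threshold. The D7 value depended on the processing. Its adjusted p was 0.0506 with the RLE factors and 0.0821 in the fit of 2 groups, both from edgeR, and 0.0566 with DESeq2. Without TMM factors it was 0.00567 from edgeR. The standard error was 0.11 on the log2 scale at each day, the smallest of the 10 members.

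Among the endosomal receptors, Tlr7 (ENSRNOG00000004249, chromosome X from 28486869 to 28512957), which binds single-stranded RNA, was at 18.7 and 14.2 CPM in control a and b, at 47.8 and 46.6 CPM in D4 a and b and at 28.8 and 30.8 CPM in D7 a and b. The groups did not overlap, and D7 lay between the others. Tlr7 rose 2.86-fold at D4 (log2 1.52 ± 0.15 SE, edgeR adjusted p = 0.000694). At D7 it was 1.80-fold higher than control with an adjusted p of 0.00723, under the fold threshold. Without control a the D7 log2 fold change was 1.07 and was called.

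Tlr8 (ENSRNOG00000045992, chromosome X from 28539158 to 28562803), the neighbouring receptor of the same subfamily, was at 15.97 and 18.8 CPM in control a and b, at 41.3 and 40.008 CPM in D4 a and b and at 33.9 and 43.3 CPM in D7 a and b. In contrast to Tlr7, its D7 libraries spanned the D4 level. It rose 2.34-fold at D4 (log2 1.23 ± 0.15 SE, edgeR adjusted p = 0.00166) and 2.22-fold at D7 (log2 1.15 ± 0.15 SE, edgeR adjusted p = 0.00283). The D7 call was lost without D7 b, when the log2 fold change was 0.97 with an adjusted p of 0.00888. Whether Tlr7 and Tlr8 differ from each other in their course was not tested.

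Tlr9 (ENSRNOG00000048161, chromosome 8 from 114916122 to 114920171), the sensor of unmethylated CpG DNA, was at 3.24 and 2.71 CPM in control a and b, at 6.57 and 6.98 CPM in D4 a and b and at 5.40 and 6.23 CPM in D7 a and b. All injured libraries were above both control libraries. The change was 2.27-fold at D4 (log2 1.18 ± 0.21 SE, edgeR adjusted p = 0.00642) and 1.95-fold at D7 (log2 0.96 ± 0.21 SE, edgeR adjusted p = 0.0167), so that only the D4 change was called. The D7 log2 fold change was 1.09 without D7 a and 1.10 without control a, and Tlr9 was called in both cases.

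Tlr3 (ENSRNOG00000021726, chromosome 16 from 50016857 to 50031214), the receptor for double-stranded RNA and the one that does not use MYD88, was the single member with a negative fold change at both days. It was at 29.5 and 22.6 CPM in control a and b, at 22.6 and 28.0 CPM in D4 a and b and at 20.8 and 25.2 CPM in D7 a and b, and the 3 groups overlapped. The log2 fold change was −0.04 at D4 (95% interval −0.50 to 0.42) and −0.18 at D7 (95% interval −0.64 to 0.28), and a 2-fold change lay outside both intervals. Its counts were 375 to 758 fragments per library, and the sign of this small difference changed with the scaling.

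The adaptor Myd88 (ENSRNOG00000013634, chromosome 8 from 128022473 to 128026841) was at 17.1 and 20.7 CPM in control a and b, at 38.3 and 36.6 CPM in D4 a and b and at 22.9 and 27.3 CPM in D7 a and b. The groups were separated, with D7 between control and D4. The D4 log2 fold change of 0.99 (standard error 0.14, 1.98-fold, adjusted p = 0.00294 from edgeR) was just below the fold threshold. With DESeq2 or with the RLE factors it was 1.01 and was called. At D7 it was 0.41 (95% interval 0.05 to 0.76, adjusted p = 0.0705 from edgeR).

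**Figure D2:**
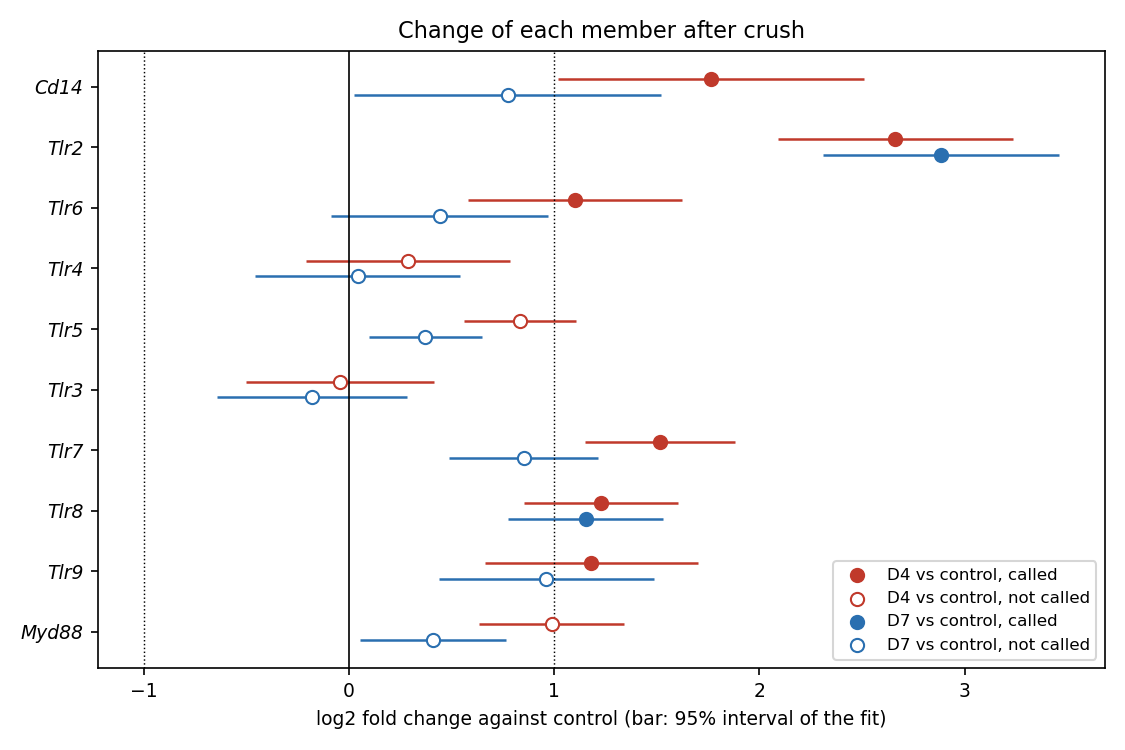
Log2 fold change against control (horizontal axis) of each member at D4 (red) and D7 (blue) with the 95% interval of the edgeR fit, filled where called and open where not; dotted lines mark a 2-fold change. Tlr2 lies at 2.66 and 2.89 and apart from the others, Tlr3 and Tlr4 lie near 0, and the D4 point is right of the D7 point for the 9 members other than Tlr2.

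The same fit gave the difference between D7 and D4, which asks whether the members had begun to return by day 7. With edgeR 0 of the 10 members were called, against 2.18% of all genes, while 5 members (Tlr5, Tlr6, Tlr7, Myd88 and Cd14) had an unadjusted p-value under 0.05, against 24.7% of all genes. All 5 were lower at D7, and their adjusted p-values lay between 0.0609 for Tlr7 and 0.124 for Tlr6. With DESeq2 1 member was called, Cd14, with a log2 fold change of −1.03 and an adjusted p of 0.0215. Tlr7, Myd88 and Tlr5 had DESeq2 adjusted p-values of 0.00198, 0.0098 and 0.0123, with fold changes under 2. In the edgeR fit of D4 and D7 alone the adjusted p was 0.0238 for Tlr7 and 0.0458 for Myd88, also under 2-fold. It was 0.0507 for Tlr5 and 0.0920 for Cd14 there. In the main edgeR fit the Cd14 difference was −0.99 (95% interval −1.71 to −0.27). Leaving out 1 D7 library moved it to −0.62 without D7 a and to −1.51 without D7 b. The largest difference in the other direction was that of Tlr2, at 0.22 (95% interval −0.28 to 0.72), and its sign turned without D7 b. Both D7 libraries were below both D4 libraries for 6 members, the 5 named above and Tlr9, and this was so for 29.1% of all genes.

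Levels per transcript length were compared between genes within each group with the deposited FPKM. In the control group Myd88 was highest at 6.73 ± 1.02 FPKM (SD, n = 2), followed by Tlr4 at 5.76 ± 0.11. Tlr8, Tlr3, Tlr5, Cd14 and Tlr7 followed between 4.49 and 3.36 FPKM, and each of these 5 overlapped with its neighbour in the order. Tlr2 at 1.02 ± 0.21, Tlr9 at 0.800 ± 0.087 and Tlr6 at 0.390 ± 0.021 FPKM were lower and did not overlap. On D4 the order was led by Cd14 at 17.4 ± 1.12 and Myd88 at 16.3 ± 0.47 FPKM. Next were Tlr8 at 12.8 ± 0.27 and Tlr7 at 11.8 ± 0.20, and no neighbours among these 4 overlapped. Tlr5, Tlr4 and Tlr2 overlapped in pairs between 9.23 and 7.88 FPKM, and Tlr3 was at 5.07 ± 0.77.

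Tlr2 thus stood at 1.02 FPKM against 5.76 for Tlr4 in the control group, and at 9.25 ± 2.12 against 7.30 ± 2.24 on D7, where the ranges of the pair overlapped. On D7 the highest mean was that of Tlr8 at 12.2 ± 2.23 FPKM. All neighbours in the order among the 7 highest members, down to Tlr5, overlapped, and Tlr5 did not overlap with Tlr3 below it. Tlr9 and Tlr6 were the lowest in every group. The lengths implied by the deposited FPKM ran from 1698 nt for Cd14 to 7118 nt for Tlr6.

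**Figure D3:**
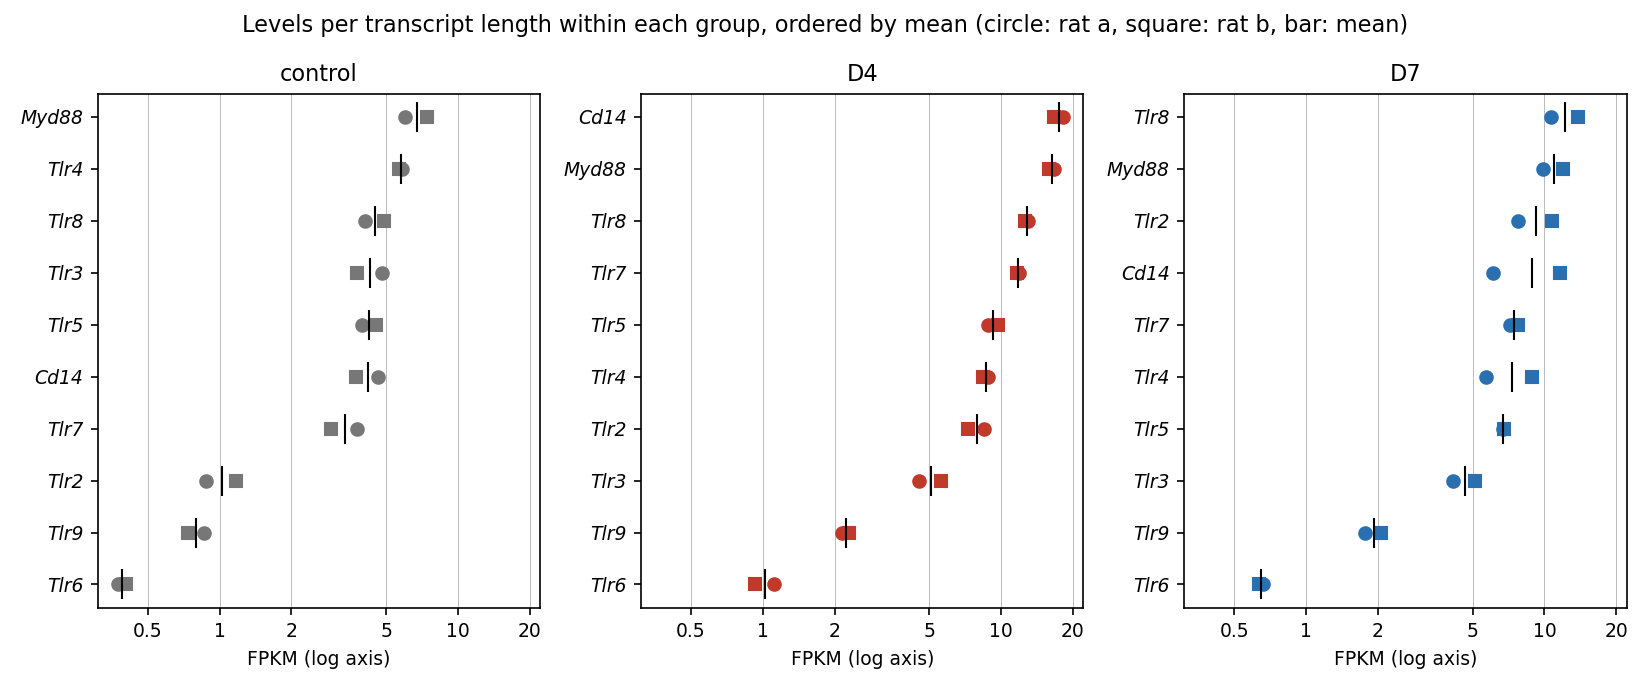
Deposited FPKM on a log axis of the 10 members in the control, D4 and D7 groups, ordered by group mean, with rat a as a circle, rat b as a square and the mean as a bar. Myd88 leads in the control group, Cd14 on D4 and Tlr8 on D7, and Tlr2 has rank 8 of 10 in the control group and rank 3 on D7.

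For the marker counts given here, the shares of all genes were 11.2% upregulated and 10.7% downregulated at D4. At D7 they were 9.83% and 9.02%. Most markers of macrophages and monocytes were upregulated on both days. Of 12 such genes, among them Cd68, Csf1r, Adgre1 and Itgam, 11 were upregulated at D4 and 10 at D7, with median log2 fold changes of 2.09 and 1.61. Their summed level was 357 to 403 CPM in control, 1345 to 1357 CPM in D4 and 842 to 1044 CPM in D7 libraries. Of 8 neutrophil markers 4 were tested, with 1 upregulated and 1 downregulated at D4 and 2 upregulated at D7. They summed to 52.8 to 56.8 CPM in control, 24.0 to 38.4 CPM in D4 and 36.2 to 38.5 CPM in D7 libraries. Elane had 0 counts in every library, and S100a8 was at or below 0.396 CPM. Dendritic cell markers were upregulated in 4 of 6 genes at D4 and 5 of 6 at D7, although their sum was 25.2 to 35.7 CPM in all groups. Of 8 B and T lymphocyte markers 4 were tested, with 1 upregulated and 1 downregulated at D4 and 3 upregulated at D7, and their sum was at most 7.89 CPM in any library. Markers of cells that belong to the nerve moved as well. Of 5 endothelial cell and pericyte markers, 3 were downregulated at D4 and 4 at D7, and they summed to 798 to 987 CPM in control, 421 to 499 CPM in D4 and 430 to 497 CPM in D7 libraries. Among Schwann cell genes, the myelin gene Mbp was at 13194 and 8008 CPM in control a and b and at 775 and 741 CPM in D4 a and b, and was downregulated at both days. The receptor gene Erbb3 was upregulated at both days. Sox10, S100b and Cdh19 were not called. The part of these cells in the changes of the members was not tested.

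Each member was therefore also expressed as a percent of the summed CPM of these 12 markers. Tlr2 was at 0.652% and 0.963% in control a and b, at 1.54% and 1.299% in D4 a and b and at 2.24% and 2.47% in D7 a and b. It was the only member for which both D4 libraries were above both control libraries, and likewise on D7, which was so for 4.76% and 5.78% of all genes. Cd14 was at 2.26% and 2.01% in the control libraries and 2.16% and 1.95% on D4, where the ranges overlapped. The other 8 members were below control on D4. This was so for 90.0% of all genes, so a lower share is what most genes show against this sum. On D7 it held for 8 members, Cd14 included and Tlr8 not, and for 84.9% of all genes. On D4 the mean share of Tlr7 was 3.50% against 4.32% in control, the smallest relative difference of the 8, and that of Tlr3 was 1.87% against 6.83%, the largest. The sum is weighted towards abundant markers such as Mrc1 and Csf1r, and the share of macrophages in the changes of the members was not tested.

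**Figure D4:**
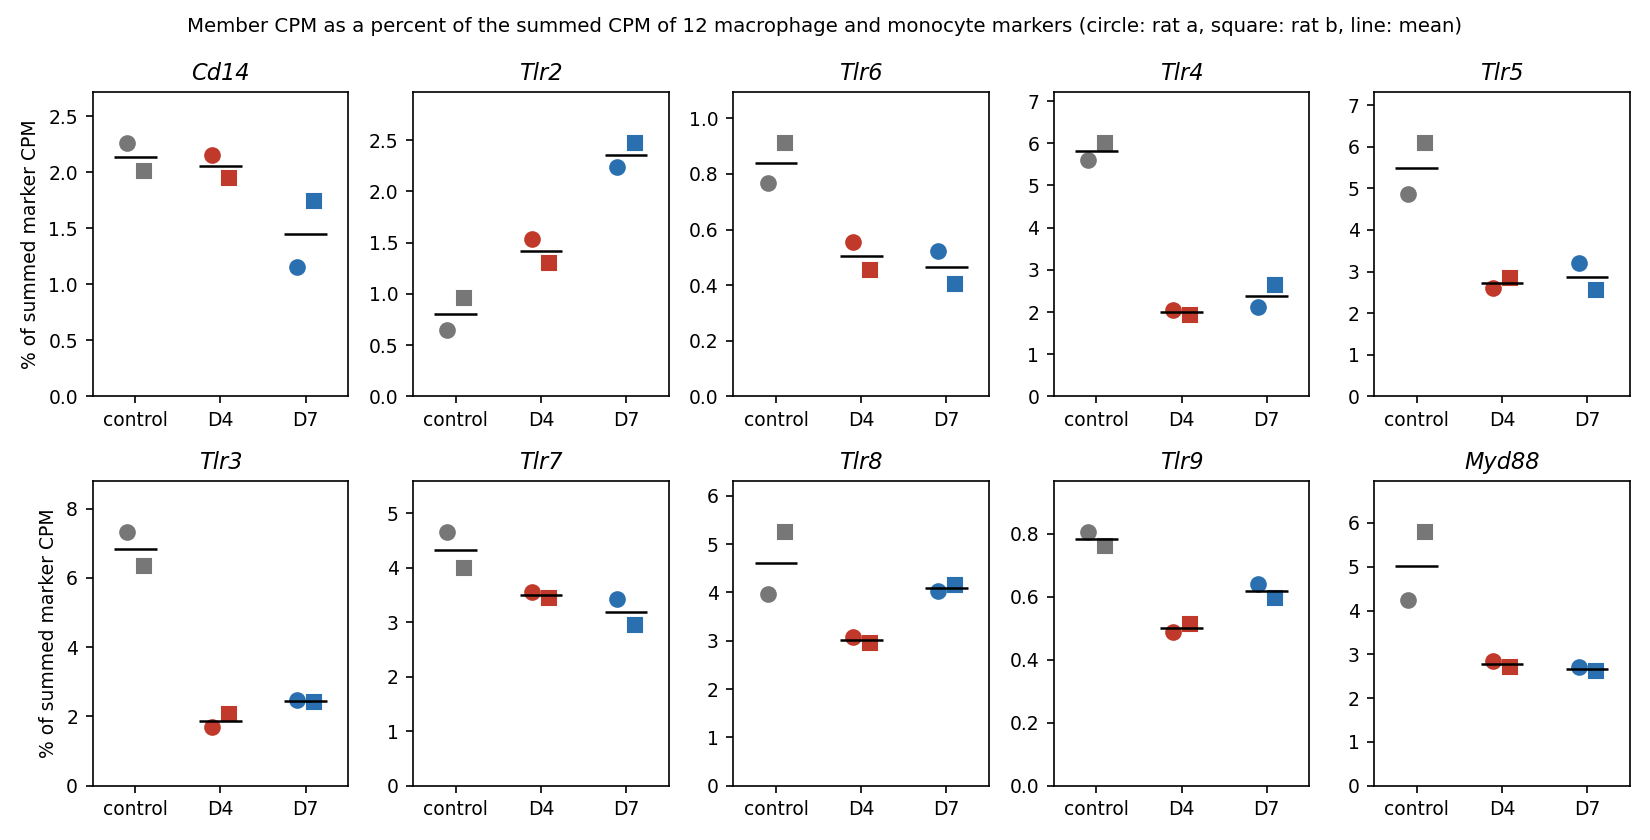
Each member's CPM as a percent of the summed CPM of 12 macrophage and monocyte markers (vertical axis, from 0) in the control, D4 and D7 groups, with rat a as a circle, rat b as a square and the mean as a line. Tlr2 lies below 1% in control and between 2.24% and 2.47% on D7, and Cd14 overlaps between control and D4. Tlr3, Tlr4, Tlr5, Tlr6, Tlr7, Tlr9 and Myd88 are lower on both days.

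Genes of the same signalling pathway outside the 10 members were taken from lists of 103 symbols, of which 97 were used and 85 tested. At D4, 27 of the 85 were upregulated and 3 downregulated, and at D7 26 were upregulated and 1 downregulated, against 11.2% and 10.7% of all genes at D4 and 9.83% and 9.02% at D7. Their median log2 fold change was 0.54 at D4 and 0.47 at D7, against −0.04 and 0.01 for all tested genes. Tlr1, Ly96 and Ticam1 were not found under these symbols and Tnf has 2 rows, so these were not analysed here.

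Of the 4 other Toll-like receptors found, Tlr13, an endosomal receptor for bacterial ribosomal RNA, rose 2.39-fold at D4 (adjusted p = 0.00433 from edgeR) and 2.14-fold at D7 (adjusted p = 0.00899). It stood at 15.1 and 13.02 CPM in the control libraries and between 26.7 and 39.0 CPM in the injured ones. Tlr11 and Tlr12, close relatives of each other, remained at or below 2.21 CPM in every library. Tlr12 was called at both days (log2 1.56 and 2.54), and Tlr11 at D7 alone (log2 1.67). Tlr10 was not called (log2 fold change 1.16 at D4, adjusted p = 0.0572 from edgeR), with 4.80 and 8.64 CPM in the 2 D4 libraries.

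Among 8 accessory proteins tested, 3 were upregulated at D4 and 2 at D7, against 11.2% and 9.83% of all genes. Unc93b1, which escorts the endosomal receptors out of the endoplasmic reticulum, rose from 22.6 and 19.6 CPM to 128 and 99.9 on D4 and 86.0 and 85.2 on D7. Its fold change was 5.39 at D4 (adjusted p = 0.000193 from edgeR) and 4.05 at D7 (adjusted p = 0.000487), larger than that of any endosomal receptor of the 10 members. Cd180, a surface relative of TLR4, rose 3.33-fold and Ly86, its partner, 2.47-fold at D4. The scavenger receptor Cd36, also an adipocyte gene, was at 311 and 270 CPM in the control libraries and at 24.5 in D7 a, and was not called.

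Among 20 adaptors and kinases, 3 were upregulated at each day: Ticam2, Btk and Pik3ap1. This share is near that of all genes, of which 11.2% were upregulated at D4 and 9.83% at D7. Ticam2, the bridging adaptor that TLR4 uses in endosomes, rose 2.94-fold at D4 and 2.97-fold at D7, and Pik3ap1, an adaptor that links the receptors to phosphoinositide 3-kinase, rose most, 3.99-fold at D4. The other 17 were not called at D4. The kinase Irak4, which binds MYD88 first, had log2 fold changes of 0.49 and 0.66, the ubiquitin ligase Traf6 −0.08 and −0.08, and the adaptor Tirap 0.39 and 0.47. Traf6 stayed between 30.4 and 33.9 CPM in all 6 libraries.

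Among 11 transcription factors, 4 were upregulated at both days: Irf5, Irf8, Jun and Fos. Of all genes, 11.2% were upregulated at D4 and 9.83% at D7. Fos, a subunit of AP-1, had the largest rise at D4 (8.71-fold) and Irf8, a factor of the macrophage lineage, at D7 (5.93-fold). The NF-κB subunits Nfkb1 and Rela were not called, with log2 fold changes of 0.19 and 0.06 at D4. Irf7, which acts downstream of TLR7 and TLR9, was not called either, and its control libraries differed widely, at 115 and 36.3 CPM.

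Among 16 negative regulators tested, 6 were upregulated at each day, against 11.2% of all genes at D4 and 9.83% at D7. Lilrb4, an inhibitory receptor of myeloid cells, rose most, from 0.824 and 0.724 CPM to 44.7 and 18.5 on D4 and 58.3 and 60.0 on D7. Tnfaip3 and Nfkbia, both feedback inhibitors of NF-κB, were not called. Nfkbia was at 137 and 47.2 CPM in the control libraries, a spread larger than its difference from D4.

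Among 14 response genes tested, 4 were upregulated and 2 downregulated at D4, and 5 were upregulated at D7. The shares of all genes were 11.2%, 10.7% and 9.83%. Ccl2, which attracts monocytes, rose from 1.18 and 1.09 CPM to 44.7 and 62.5 on D4 and 12.5 and 21.5 on D7. Il6 rose 5.57-fold at D4, where it had 20 and 21 counts against 3 and 2 in control a and b. The control counts were too few to carry Il6 through the filter on low counts. It was tested only through libraries of injured nerve, so its test is no independent support for a difference. Il1b was called at D7, but its counts were 325 in D7 a and 39 in D7 b, so that most of the signal came from 1 library. Il23a decreased by 1.55 in log2 at D4, with 10 and 15 counts against 25 and 26.

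Among the proteins known as endogenous ligands, 7 of 14 found were tested. At D4, 2 were upregulated and 1 downregulated, against 11.2% and 10.7% of all genes. At D7 there was 1 in each direction, against 9.83% and 9.02%. Tnc, the matrix protein tenascin C and a ligand of TLR4, rose 5.57-fold at D4 and 4.11-fold at D7. Hspa1b, a heat shock protein, decreased by 1.26 at D4 and by 1.55 at D7 in log2. S100a8, a ligand of TLR4 made by neutrophils, had at most 8 counts in any library. Of the 5 endosomal proteases, which cut the endosomal receptors into their active forms, 3 were upregulated at D4 and 2 at D7. The shares of all genes were 11.2% and 9.83%. Ctss rose 4.56-fold, Ctsb 3.02-fold and Lgmn 2.09-fold at D4. Ctsl had a log2 fold change of 0.77 and Ctsk of 0.09, and neither was called.

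**Figure D5:**
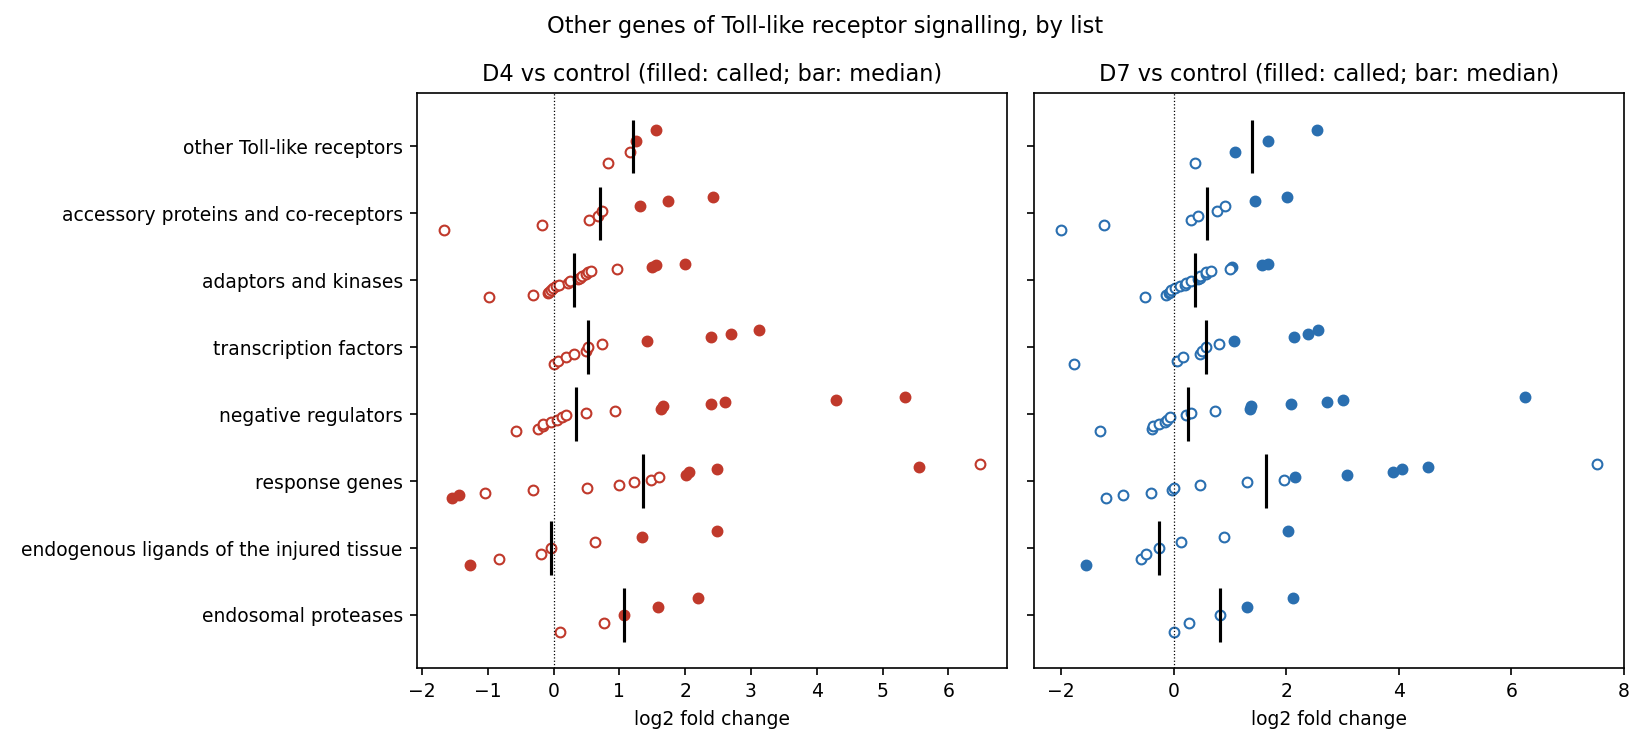
Log2 fold change (horizontal axis) of each tested pathway gene against control at D4 (left) and D7 (right), by list, filled where called and open where not, with the list median as a bar. Upregulated genes are found in every list, while most adaptors and kinases lie near 0; the open point farthest to the right among the response genes is Il1a, which had 0 counts in both control libraries.

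The genes closest to each member in course over the 6 libraries were found by the root-mean-square difference of centred log2 CPM among 13100 genes. The nearest to Tlr2 were Slpi and Naip6, at 0.11 each, and only 7 genes lay within 0.2. The nearest to Cd14 were Oas3 and Fcna, at 0.13 and 0.14, with 12 genes within 0.2. For Tlr7 they were Galk1 and Pld4 (150 genes within 0.2) and for Tlr8 Cass4 and Osmr (229 genes). By contrast 1578 genes lay within 0.2 of Tlr3, whose nearest were Ndufb8 and Nsa2. Between 389 and 940 genes lay that close to Tlr4 (nearest Dennd2c and Uchl3), Tlr5 (Rpa1 and Plod1), Tlr6 (Capn1 and Slc7a8), Tlr9 (Vsig10l and Hs6st1) and Myd88 (Myo19 and Haus6). The points share libraries and groups, and a gene with small changes has many neighbours by construction.

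In the lncRNA table, 2 transcripts overlapped the span of a member by at least 1 base, without regard to strand. NONRATT013763.2, a transcript of 315 nt listed on chromosome 18 from 29530042 to 29561385, overlaps Cd14. It had 0 counts in control a and b, 15 and 18 in D4 a and b, and 0 and 7 in D7 a and b. Like Cd14 it was highest on D4 and lower in D7 a than in D7 b. It passed the filter on low counts only through the D4 libraries, where it was highest, so its test is no independent support for a difference. In the edgeR fit of all 6 libraries it was not called at D4 or D7, against 10.1% and 5.79% of 14077 lncRNAs in either direction. Its unadjusted p was 0.0207 at D4 and 0.106 at D7, and 28.5% and 25.5% of all lncRNAs had one under 0.05. DESeq2 did not call it either, whereas edgeR fitted to the control and D4 groups alone called it at D4. Fragments from a shared locus may have been divided between the lncRNA and Cd14. The other, NONRATT008530.2 at the Tlr5 locus, had 2 or 3 counts in each library and was not tested.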

How the data were processed

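Sciatic nerve RNA of 6 rats was sequenced, with 2 libraries in each of 3 groups. Ribosomal RNA was depleted before sequencing. The authors aligned reads to Rnor_6.0 using HISAT2 2.0.4, assembled transcripts with StringTie 1.3.0 and deposited raw fragment counts per gene and per lncRNA transcript, with FPKM that they computed from them. Use of strand in counting was not stated. The deposited FPKM was used only between genes within a group. Counts were filtered with filterByExpr, scaled with TMM and fitted with the quasi-likelihood test of edgeR 4.0.16 (R 4.3.3) over all 6 libraries, mRNAs and lncRNAs separately. Standard errors came from the size of the log2 fold change over the root of the F statistic, and 95% intervals from its degrees of freedom. DESeq2 1.42.0 was an alternative. On simulated D4 data of 15195 mRNAs, 73 of 100 changes of 4-fold and 90 of 100 of 16-fold were recovered, with 13 false calls. For 14077 lncRNAs, 12 of 100 and 65 of 100 were recovered, with 5 false calls, so a lncRNA that was not called may still have changed. The members and lists were chosen with earlier results of these data known. Named pathway genes were a fixed set, the largest called change per list and direction, and all genes of lists of 5; Cd180, Ly86, Cd36, Ticam2, Btk, Irf5, Jun, Atf3, Il1a, S100a8 and the cell markers were named after their values were seen. Likeness used a prior of 0.5 CPM and genes with mean log2 CPM of at least 1. Sequences were read from RefSeq tables on GRCr8, a later build than that of the counts.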

Additional observations from a re-analysis of the deposited data

Results flagged for a closer look

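The D4 and D7 changes against control differed from each other in the direct comparison for 2 of the genes described here. Atf3, a stress-induced repressor of Toll-like receptor responses, rose 19.7-fold at D4 and 8.08-fold at D7, a log2 difference of −1.29 between the days (adjusted p = 0.0411 from edgeR), with lower levels in 2 of 2 D7 libraries (16.3 and 13.9 CPM against 38.9 and 34.9). Ccl2 rose 46.9-fold at D4 and 14.9-fold at D7, a log2 difference of −1.66 (adjusted p = 0.0373 from edgeR), again in 2 of 2 D7 libraries. These were 2 of 85 pathway genes, against 2.18% of all genes, a share near the background. Both calls were lost without D7 a and without either D4 library, when 0 pathway genes were called. With edgeR 0 of the 10 members passed this comparison, while 5 had an unadjusted p under 0.05 and DESeq2 called 1. Groups of 2 libraries allow no judgement of a single outlying library.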

How the results depend on the processing

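Each alternative changed 1 choice: no TMM factors, RLE factors, no filter on low counts, DESeq2, a fit of the 2 compared groups only, no fold threshold, or 1 library left out. Without TMM factors 5 members were called at D7. Without the fold threshold the calls were 6715 genes at D4 and 5705 at D7, with 5 members and 41 pathway genes at D7, and 710 genes for D7 vs D4. DESeq2 called 521 genes and 1 member for D7 vs D4, and the fit of 2 groups called 1 lncRNA at the member loci at D4. With 1 library left out, the members called at D7 were between 1 (without D7 b) and 4 (without control a or D7 a). For D7 vs D4 the range was 0 to 469 genes (0 without either D4 library, 99 without D7 a, 469 without D7 b), 0 to 1 members and 0 to 4 pathway genes.

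The sign turned only where a change was not called. Tlr3 at D4 was 0.25 without TMM factors and 0.0101 in the fit of 2 groups, and between −0.22 and 0.16 with 1 library left out. At D7 it was 0.12 without TMM factors and between −0.36 and 0.0247 with 1 library left out. Tlr4 at D7 ranged from −0.30 to 0.35. For D7 vs D4 with 1 library left out, Tlr2 ranged from −0.0220 to 0.42, Tlr3 from −0.28 to 0.0250, Tlr4 from −0.59 to 0.0201 and Tlr8 from −0.26 to 0.0810. The cause of these shifts was not tested, beyond the fewer samples in the fits.

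Letters a and b name different rats and were not used as pairs, since same-letter deviations correlated at 0.02, 0.24 and −0.19 across genes. With the letter as a replicate block 3281, 2827 and 248 genes and 6, 2 and 0 members were called at D4, at D7 and for D7 vs D4, and no member's call changed. Crossing the D4 letters, chosen after seeing the data, gave 334 genes for D7 vs D4. A group of 2 libraries limits the precision of every comparison, and Tlr6 and Tlr9 rest on as few as 45 counts per library.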

Other observations

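Sensors of other families were looked up after the members' values had been seen. Of 19 symbols, 17 were found and tested, and 9 were upregulated at D4 and 7 at D7, with 1 downregulated at D7, against 11.2%, 9.83% and 9.02% of all genes. The largest changes were those of 2 C-type lectins, Clec7a and Clec4d. Clec7a, the receptor for fungal beta-glucan, had 26 and 22 counts in control a and b, 986 and 582 in D4 a and b and 944 and 761 in D7 a and b (log2 fold change 4.53 and 4.94, adjusted p = 0.000391 and 0.000524 from edgeR). Clec4d rose by a log2 fold change of 3.75 at D4, while Clec4e and their adaptor Card9 rose by 1.74 and 1.21. The inflammasome genes Nlrp3, Nlrc4, Aim2 and Pycard were called higher on both days, by log2 values of 1.78 to 2.26 at D4, whereas Casp1, the protease of the inflammasome, was not called at either day (log2 0.35 and −0.26). Aim2 had 9 and 7 counts in control a and b, and Clec4e had 10 and 14. Both genes passed the filter on low counts only through libraries of injured nerve, so their tests are no independent support for a difference.

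The cytosolic RNA sensors were not upregulated. Ddx58, Ifih1 and their adaptor Mavs had D4 log2 fold changes of −0.03, 0.23 and −0.04, and Dhx58 was lower at D7 (log2 fold change −1.14, adjusted p = 0.0463 from edgeR). Dhx58, Zbp1 and Irf7 were higher in control a than in control b, with 213 and 129 counts for Dhx58 and 59 and 7 counts for Zbp1.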
